A study of Mus musculus with 6 samples.

Results

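The 10 genes described here encode the 4 chains of the receptors for type I interferon (Ifnar1, Ifnar2) and interferon gamma (Ifngr1, Ifngr2), the 3 Janus kinases that those chains carry (Jak1, Jak2, Tyk2), 2 inhibitors of the kinases (Socs1, Socs3) and the transcription factor Irf1. They were taken by gene symbol from the 18058 genes of the deposited table, and all 10 were found and passed the filter on low values. RNA sequencing had been performed on whole brainstems from 1-month-old, uninjected mice, of which 3 were wild type (WT, C57BL/6J) and 3 were Rag1-/- (B6.129S7-Rag1 tm1Mom/J), a strain that carries a germline deletion in every cell and makes no mature T or B cells. The genotypes were compared to find brainstem transcripts that differ when lymphocytes are missing, in a study that turned on the chemokine Cxcl10, itself a product of interferon signalling. For the interferon receptors and Janus kinases, no difference between the genotypes passed the test. Among 16 target genes of type I interferon 2, Ifit3 and Oasl2, fell (log2 fold change -0.99 and -0.84) and passed it, beside 0.0477% of all tested genes. The size of both differences held under the 15 alternative settings, but their adjusted p was over 0.05 in most of them. The list of target genes was assembled with earlier results of these data known.

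Interferons act through a short chain of proteins. Type I interferons bind Ifnar1 and Ifnar2, which carry Tyk2 and Jak1, and interferon gamma binds Ifngr1 and Ifngr2, which carry Jak1 and Jak2. The kinases phosphorylate STAT proteins. A complex that includes Stat2 and Irf9 binds the interferon-stimulated response element (ISRE), and pairs of STAT proteins bind the gamma-activated site (GAS), from which Irf1 is switched on early. Socs1 and Socs3 are themselves induced by STAT proteins and then block the kinases, and in the brain the receptors are present on neurons, glia and endothelium alike. In whole tissue, fewer cells of a type and less RNA per cell cannot be told apart.

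The libraries were examined first. Values were in CPM (gene counts scaled to the size of each library), and the step that stands for 1 read gave depths of 31600000 to 46400000 reads. Rag1, the targeted gene, was at 0.115 to 0.388 CPM in WT and at 2.60 to 4.02 CPM in the brainstems labelled Rag1-/-, higher instead of lower, so that these are named by their label and every direction rests on it. The B cell gene Ms4a1 ran the way the labels say, at 0.0473 to 0.108 CPM in WT (at most 5 reads) and at 0.0001 CPM, the lowest value deposited, in all 3 brainstems labelled Rag1-/-. Xist was over 100 CPM in WT replicates 1 and 2 and at most 2.93 CPM in WT replicate 3 and the brainstems labelled Rag1-/-, so sex and genotype are partly confounded. The tissue label was checked against region markers: Slc6a5 was at 8.30 to 40.9 CPM and Tph2 at 10 to 58 CPM, with overlapping genotypes, beside a sum of 9.39 to 23.2 CPM for 5 forebrain genes. Replicate 2 labelled Rag1-/- had the lowest Hoxa3, at 0.0951 CPM or 3 reads against 1.11 to 2.75 CPM in the others, and the lowest Hoxb3, at 0.412 against 2.5 to 7.86 CPM. Over the 16762 tested genes the median log2 fold change (brainstems labelled Rag1-/- minus WT) was -0.05, and 67.7% of genes were below 0.

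Levels of the 10 transcripts were compared per length, as CPM per kb of the longest coding transcript. Jak1 was highest at 22.6 to 25.9 CPM per kb over the 6 brainstems, followed by Ifngr2 (16.6 to 17.8) and Ifnar1 (9.82 to 11.1). Ifngr1 (6.82 to 8.39 CPM per kb) stood above Jak2 (4.79 to 5.41) and Ifnar2 (4.69 to 5.38), which overlapped each other. Tyk2 (1.76 to 2.15 CPM per kb) and Irf1 (1.38 to 2.01) also overlapped. The inhibitors were lowest, with Socs1 at 0.754 to 1.14 and Socs3 at 0.361 to 0.570 CPM per kb, so that the mean of Jak1 was 48.8 times that of Socs3. Within each receptor one chain was more abundant than its partner on the same scale, Ifngr2 over Ifngr1 and Ifnar1 over Ifnar2, in all 6 brainstems. The order rests on the annotated transcript lengths.

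**Figure D1:**
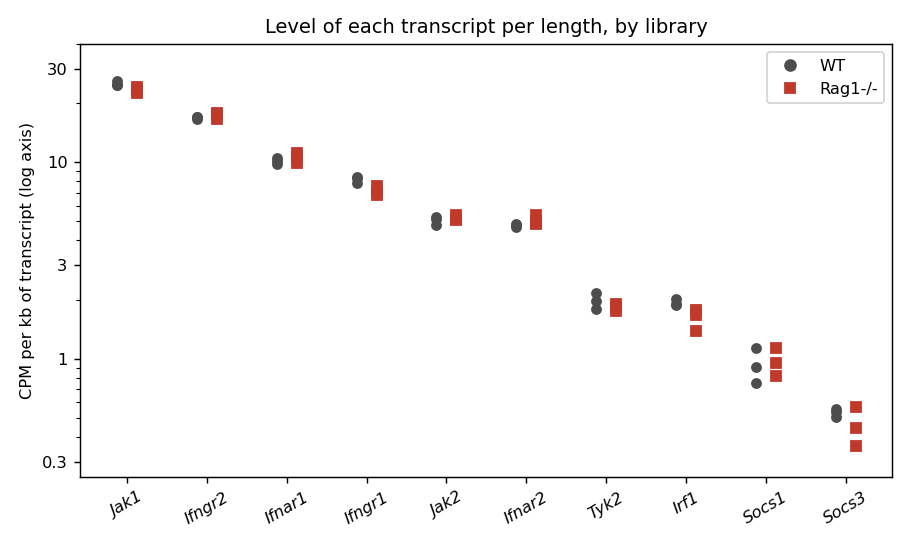
Level of each of the 10 transcripts in CPM per kb of transcript (log axis) in each library, with WT as grey circles and libraries labelled Rag1-/- as red squares. Jak1 sits at 22.6 to 25.9 and Socs3 at 0.361 to 0.570 CPM per kb, and Jak2 overlaps Ifnar2 as Tyk2 overlaps Irf1.

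Across the comparison of genotypes, 0 of the 10 genes had an adjusted p under 0.05 by limma-trend, against 0.0477% of all tested genes. At an unadjusted p of at most 0.05 there was 1, Ifngr1, against 11.6% of all tested genes (9.29% lower and 2.27% higher in the brainstems labelled Rag1-/-). The genotypes did not overlap for 3 of the 10, Ifngr1, Jak1 and Irf1, and each of these was lower in the brainstems labelled Rag1-/-. Of all tested genes, 18.4% did not overlap, 14.4% lower and 3.98% higher. With 10 genes, counts of 1 and 3 are near these background shares. The median log2 fold change of the 10 was -0.03, beside -0.05 for all tested genes.

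**Figure D2:**
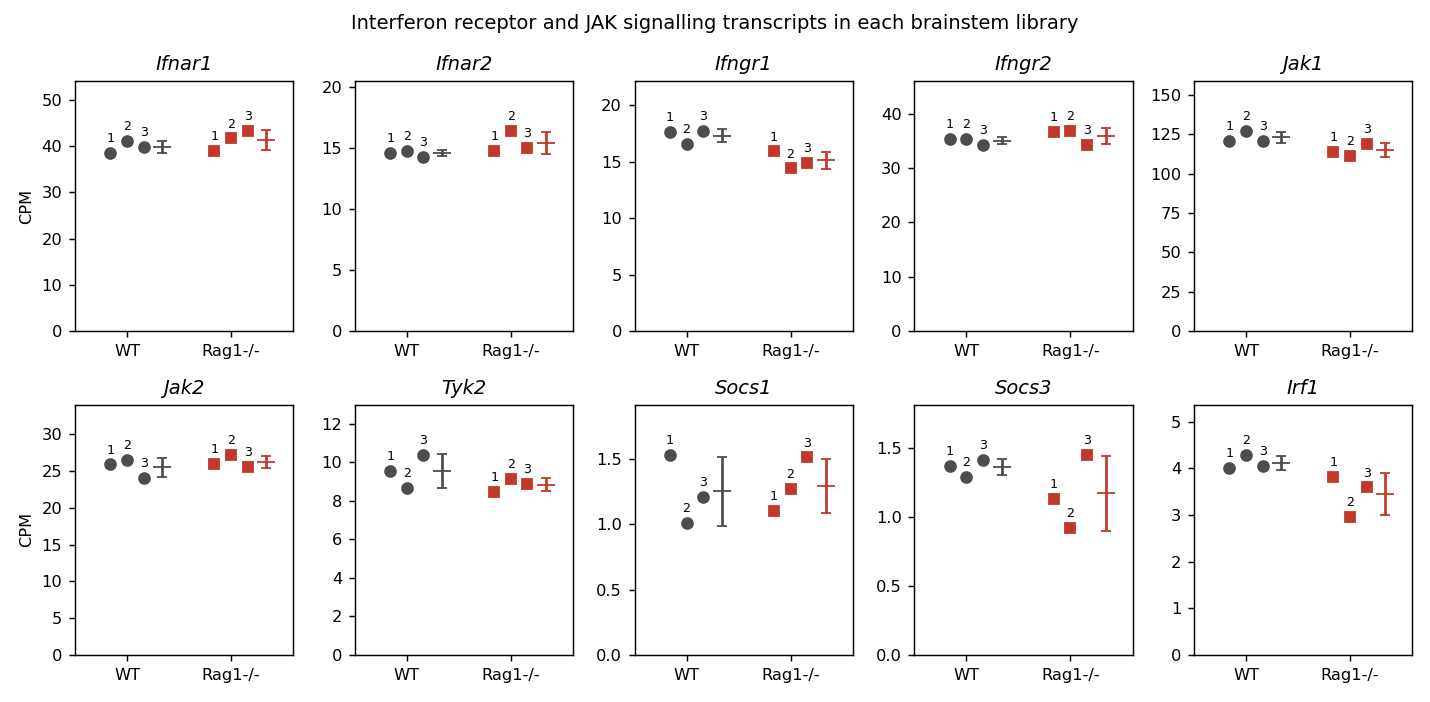
CPM of each of the 10 transcripts in 3 WT libraries (grey circles) and 3 libraries labelled Rag1-/- (red squares), with replicate numbers above the points and mean ± SD beside them, on axes that start at 0. Ifngr1, Jak1 and Irf1 do not overlap between the genotypes, and the other 7 do.

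Of the 4 receptor genes, 3 lie side by side. Ifnar2 (chr16:91372783-91405589), Ifnar1 (chr16:91485215-91510522) and Ifngr2 (chr16:91547094-91564007) are on the plus strand of mm10 within 191225 bases, with Il10rb, a chain of the interleukin 10 and interferon lambda receptors, between the first pair. Ifngr1 lies apart, at chr10:19591949-19610227, also on the plus strand.

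Ifnar1, the chain that carries Tyk2, was at 38.4, 41.1 and 39.8 CPM in the WT brainstems (replicates 1, 2 and 3, in this order throughout) and at 38.9, 41.6 and 43.2 CPM in the brainstems labelled Rag1-/-. The groups overlapped, and the log2 fold change was 0.05 (standard error 0.05, adjusted p = 0.741 by limma-trend). Its 95% interval, expressed as a fold, ran from 0.950 to 1.13. Ifnar2, the chain that carries Jak1, was at 14.6, 14.8 and 14.3 CPM in WT and at 14.8, 16.4 and 15.0 CPM in the brainstems labelled Rag1-/-. Replicate 2 labelled Rag1-/- was the highest of the 6, and the groups overlapped. The fold had a 95% interval of 0.951 to 1.17 (adjusted p = 0.672 by limma-trend). The ratio of Ifnar1 to Ifnar2 CPM within a library was 2.73 ± 0.0819 (SD, n = 3) in WT and 2.68 ± 0.181 (SD, n = 3) in the brainstems labelled Rag1-/-. In the annotation, Ifnar2 shares 315 exon bases with Gm21970 on the same strand, so its reads could be split between them.

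Ifngr1, the chain of the interferon gamma receptor that binds the ligand and carries Jak1, was at 17.6, 16.6 and 17.7 CPM in WT and at 15.9, 14.4 and 14.9 CPM in the brainstems labelled Rag1-/-. Every brainstem labelled Rag1-/- was below every WT brainstem, and the gap between the nearest of them was narrow. Limma-trend gave a log2 fold change of -0.20 (standard error 0.06), a 95% interval of the fold from 0.789 to 0.963, an unadjusted p of 0.0127 and an adjusted p of 0.355. By exact permutation (two-sided) p was 0.1, and 3 samples against 3 allow no smaller value. Under the 15 alternative settings the log2 fold change ranged from -0.236 to -0.15 and the unadjusted p from 0.00981 to 0.0486 by limma-trend, the latter without replicate 2 labelled Rag1-/-. Ifngr2, the partner chain that carries Jak2, was at 35.4, 35.4 and 34.3 CPM in WT and at 36.7, 36.8 and 34.3 CPM in the brainstems labelled Rag1-/-. Its groups overlapped, with an interval of the fold from 0.949 to 1.11 (adjusted p = 0.799 by limma-trend).

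The ratio of Ifngr2 to Ifngr1 CPM within a library does not depend on how libraries are scaled to each other. It was 2.01, 2.13 and 1.94 in WT and 2.31, 2.55 and 2.30 in the brainstems labelled Rag1-/-, and the groups did not overlap. Of 5 ratios computed between members (the others being Ifnar1 to Ifnar2, Jak1 to Jak2, Jak1 to Tyk2 and Socs1 to Socs3), it was the one that separated the genotypes, with an exact permutation p of 0.1 and 0.5 after Benjamini-Hochberg adjustment over the 5.

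Jak1 (chr4:101151974-101265282, minus strand), the kinase that both interferon receptors share, was at 121, 127 and 121 CPM in WT and at 114, 111 and 119 CPM in the brainstems labelled Rag1-/-. The groups did not overlap, although WT replicates 1 and 3 lay close to replicate 3 labelled Rag1-/-. Limma-trend gave a log2 fold change of -0.10 (standard error 0.04) with a 95% interval from -0.20 to 0.0044, an unadjusted p of 0.0586 and an adjusted p of 0.444. With between 3498 and 5900 reads in each library it was the most deeply covered of the 10 genes. Jak2 (chr19:29251803-29313080, plus strand), the partner of Ifngr2, was at 25.9, 26.5 and 24.1 CPM in WT and at 26.0, 27.2 and 25.5 CPM in the brainstems labelled Rag1-/-. Here the groups overlapped, and the interval of the fold ran from 0.941 to 1.13 (adjusted p = 0.794 by limma-trend).

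Tyk2 (chr9:21104068-21131275, minus strand), the partner of Ifnar1, was at 9.56, 8.68 and 10.4 CPM in WT and at 8.49, 9.16 and 8.88 CPM in the brainstems labelled Rag1-/-. WT replicate 3 was the highest and WT replicate 2 lay among the brainstems labelled Rag1-/-. The interval of the fold was 0.809 to 1.07 (adjusted p = 0.646 by limma-trend). The log2 fold change of Tyk2, -0.11, was -0.043 without WT replicate 3, -0.17 without WT replicate 2 and -0.24 with a term for high Xist (unadjusted p = 0.632, 0.0892 and 0.0589 by limma-trend).

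**Figure D3:**
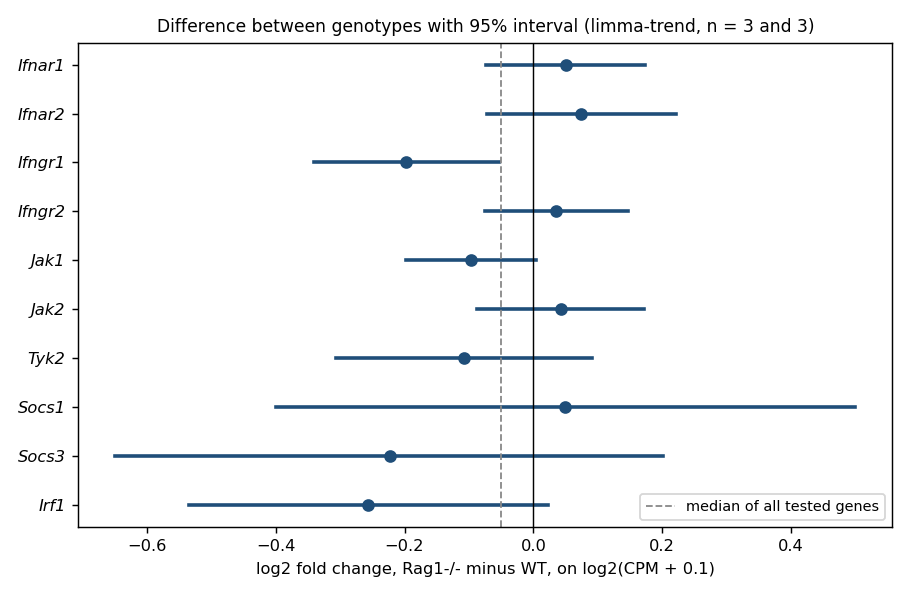
Log2 fold change (libraries labelled Rag1-/- minus WT, on log2(CPM + 0.1)) of each of the 10 transcripts with its 95% interval from limma-trend. The interval of Ifngr1 lies below 0, the other 9 include 0, and those of Socs1 and Socs3 are the widest.

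For Irf1, Socs3 and Socs1, which are controlled by STAT proteins, and for the type I interferon target Ifit3, the 250 bases before the transcription start are shown with the letters of the 2 elements (RefSeq promoters, build GRCm38.p6, gene strand, 5′ to 3′). Capitals mark the GAS letters TTCNNNGAA in Irf1 and Socs3, which read the same on both strands, and the ISRE letters in Socs1 and Ifit3, GAAA followed by any 2 bases and another GAAA, searched on both strands. The windows are chr11:53769764-53770013 (plus strand) for Irf1, chr11:117969367-117969616 (minus strand) for Socs3, chr16:10785537-10785786 (minus strand) for Socs1 and chr19:34583279-34583528 (plus strand) for Ifit3.
Irf1: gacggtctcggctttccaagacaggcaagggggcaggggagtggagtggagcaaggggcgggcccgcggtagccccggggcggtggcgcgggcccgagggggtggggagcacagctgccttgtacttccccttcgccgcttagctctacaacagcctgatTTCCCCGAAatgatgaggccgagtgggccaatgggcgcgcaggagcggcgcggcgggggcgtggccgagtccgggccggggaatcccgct
Socs3: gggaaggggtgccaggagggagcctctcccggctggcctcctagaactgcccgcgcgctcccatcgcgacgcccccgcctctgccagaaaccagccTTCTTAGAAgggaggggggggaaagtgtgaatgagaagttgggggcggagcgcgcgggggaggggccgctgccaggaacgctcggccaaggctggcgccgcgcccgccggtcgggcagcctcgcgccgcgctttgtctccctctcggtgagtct
Socs1: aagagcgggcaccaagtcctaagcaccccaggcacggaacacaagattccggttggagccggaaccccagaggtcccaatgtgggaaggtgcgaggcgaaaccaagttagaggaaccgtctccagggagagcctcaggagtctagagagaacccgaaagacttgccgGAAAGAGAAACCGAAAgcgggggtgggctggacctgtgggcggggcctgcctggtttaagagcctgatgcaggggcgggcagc
Ifit3: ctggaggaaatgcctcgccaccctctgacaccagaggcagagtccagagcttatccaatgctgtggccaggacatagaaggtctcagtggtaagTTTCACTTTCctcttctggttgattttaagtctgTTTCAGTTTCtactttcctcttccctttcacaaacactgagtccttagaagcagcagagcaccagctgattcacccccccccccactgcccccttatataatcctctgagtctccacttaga
The match begins 90 bases before the start in Irf1 and 154 bases before it in Socs3. Socs1 has 2 ISRE matches that overlap by 4 bases, and Ifit3 has 2 separate ones on the opposite strand. All 10 genes had a promoter in the RefSeq table, of 300 bases including the 50 after the start, and Irf1 had a further one without either set of letters. GAS letters were in 4 of them (Ifnar1, Ifnar2, Socs3 and Irf1) and in 9.55% of all genes with a promoter. ISRE letters were in 1 (Socs1) and in 3.99% of all genes. They were in 9 of the 13 type I interferon targets that had a promoter, but not in Oasl2, which had neither set of letters. Of 11 interferon gamma targets with a promoter, 6 had ISRE letters and 3 had GAS letters. A match describes the letters only.

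Irf1 (chr11:53770014-53778374, plus strand), the transcription factor that acts at ISRE-like sites, was at 4.01, 4.29 and 4.05 CPM in WT and at 3.81, 2.95 and 3.59 CPM in the brainstems labelled Rag1-/-. Each brainstem labelled Rag1-/- was below each WT brainstem, and replicate 2 labelled Rag1-/- was the lowest. Limma-trend gave a log2 fold change of -0.26 (standard error 0.12), an interval of the fold from 0.690 to 1.02, an unadjusted p of 0.0670 and an adjusted p of 0.462. Without replicate 2 labelled Rag1-/- it was -0.15, and without replicate 1 so labelled it was -0.33. Irf1 shares 100 exon bases with Gm17334 on the opposite strand, and whether the counting used strand is not given in the sources used here.

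Socs1 (chr16:10783809-10785536, minus strand), which binds the active site of Janus kinases and blocks them, was at 1.53, 1.01 and 1.21 CPM in WT and at 1.10, 1.27 and 1.51 CPM in the brainstems labelled Rag1-/-. The groups overlapped over nearly their whole range, and WT replicates 1 and 2 were the highest and lowest of the 6. The interval of the fold ran from 0.758 to 1.41 (adjusted p = 0.940 by limma-trend), and the sign of its log2 fold change depended on single libraries, from -0.082 without WT replicate 2 to 0.196 without WT replicate 1. Socs3 (chr11:117966087-117969366, minus strand), which acts mainly on receptors that contain gp130, was at 1.37, 1.29 and 1.41 CPM in WT and at 1.13, 0.919 and 1.45 CPM in the brainstems labelled Rag1-/-. Replicates 1 and 2 labelled Rag1-/- were below every WT brainstem and replicate 3 was above them all. The interval of the fold was 0.638 to 1.15 (adjusted p = 0.659 by limma-trend), and the log2 fold change of -0.22 was -0.077 without replicate 2 and -0.38 without replicate 3 labelled Rag1-/-. Socs1 and Socs3 rested on 29 to 65 reads a library, and differences within these intervals were not detectable here. Counting error and the spread between mice were not separated.

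The rest of the pathway was described from lists of known genes. Of 21 interferon ligand genes listed by symbol, 0 were found among the deposited genes, so they could not be compared. Of 28 tested receptors that use Janus kinases for other cytokines, 5 were lower and 1 was higher in the brainstems labelled Rag1-/- at an unadjusted p of at most 0.05, and the median log2 fold change was -0.07, beside 9.29% lower and 2.27% higher of all tested genes. The share of lower genes among all tested was 5.18% without replicate 1 and 7.53% without replicate 3 labelled Rag1-/-, 9.73% without WT replicate 2, 12.3% with a term for high Xist, 4.11% with median-of-ratios rescaling and 3.82% with quantile normalization, and list counts under these settings are to be read against it. The count of 5 was 2 without replicate 1 and 3 without replicate 3 labelled Rag1-/-, 3 without WT replicate 2 and with the Xist term, and 2 with quantile normalization. Il6st, the gp130 chain, was at 128 to 130 CPM in WT and at 116 to 119 CPM in the brainstems labelled Rag1-/- (log2 fold change -0.14, adjusted p = 0.319 by limma-trend). Ifnlr1, the specific chain of the interferon lambda receptor, was at 0.566, 0.754 and 0.460 CPM in WT and at 0.260, 0.349 and 0.285 CPM in the brainstems labelled Rag1-/- (log2 fold change -0.79, adjusted p = 0.346 by limma-trend). This rested on 9 to 35 reads a library, and the log2 fold change was -0.29 with a pseudocount of 1 and -0.50 with a term for high Xist. Il10rb, its partner, was at 5.20 to 6.91 and at 5.75 to 6.53 CPM.

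Below the receptors, 0 genes of the STAT and IRF lists passed the adjusted test by limma-trend. Of Jak3 and the 7 STAT genes, 3 had an unadjusted p of at most 0.05 and were lower, and 0 were higher, beside 9.29% lower and 2.27% higher of all tested genes, with a list median log2 fold change of -0.13. The count of 3 was 2 with median-of-ratios rescaling and with quantile normalization, where 4.11% and 3.82% of all tested genes were lower. It was also 2 without WT replicate 3 (9.31% lower) and without replicate 1 (5.18%) or 2 (8.23%) labelled Rag1-/-. Stat2 was at 19.6, 17.4 and 21.7 CPM in WT and at 15.7, 15.8 and 15.6 CPM in the brainstems labelled Rag1-/- (log2 fold change -0.31, adjusted p = 0.328 by limma-trend). Stat5b, which serves growth hormone and interleukin receptors, was at 44.4 to 54.2 and at 41.3 to 43.7 CPM (log2 fold change -0.17, adjusted p = 0.429 by limma-trend), and its log2 fold change was -0.087 without WT replicate 3 and -0.34 with a term for high Xist. After median-of-ratios rescaling and quantile normalization it was -0.126 and -0.127 (unadjusted p = 0.116 and 0.127 by limma-trend). Jak3, the kinase of the common gamma chain, was at 4.12 to 4.85 and at 4.69 to 5.13 CPM, and Stat3 was at 50.8 to 54.0 and at 47.8 to 52.0 CPM.

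Of the 8 IRF genes other than Irf1, 2 were lower at an unadjusted p of at most 0.05, beside 9.29% of all tested genes, and the list median log2 fold change was -0.10. The differences of these 2 were larger than that of Irf1 on the same scale. Irf7, which amplifies type I interferon production, was at 5.76, 5.10 and 4.57 CPM in WT and at 3.03, 2.5 and 3.10 CPM in the brainstems labelled Rag1-/- (log2 fold change -0.82, standard error 0.13, adjusted p = 0.165 by limma-trend). Irf9, the DNA-binding partner of Stat2, was at 9.27, 10.3 and 9.51 CPM in WT and at 7.02, 7.25 and 6.61 CPM (log2 fold change -0.47, standard error 0.08, adjusted p = 0.193 by limma-trend). The differences between Irf1 and these genes were not tested.

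Of 17 negative regulators other than Socs1 and Socs3, 4 were lower and 0 higher at an unadjusted p of at most 0.05, with a median log2 fold change of -0.06, beside the 9.29% lower of all tested genes. The count of 4 was 2 without replicate 1 labelled Rag1-/-, 2 with either rescaling (median-of-ratios or quantile) and 6 without replicate 2 so labelled, where 8.23% of all tested genes were lower. Usp18, which removes the ubiquitin-like Isg15 and holds Ifnar2 in check, was at 3.04, 2.82 and 2.90 CPM in WT and at 1.36, 1.36 and 1.54 CPM in the brainstems labelled Rag1-/-. The log2 fold change was -0.99 (standard error 0.13, adjusted p = 0.0566 by limma-trend). Over the 15 alternatives its log2 fold change ranged from -1.05 to -0.698. The adjusted p by limma-trend ranged from 0.0473 (pseudocount 1) to 0.356 (without replicate 1 labelled Rag1-/-) and was over 0.05 in 14 of them. Cish, a SOCS family gene induced by Stat5, was at 6.75 to 6.89 and at 5.20 to 5.86 CPM (adjusted p = 0.334 by limma-trend), and Socs5 was at 104 to 109 and at 89.8 to 102 CPM (adjusted p = 0.382 by limma-trend). The log2 fold change of Socs5, -0.15, was -0.094 without replicate 1 labelled Rag1-/-.

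Among the targets of type I interferon, 12 of 16 were lower and 0 higher at an unadjusted p of at most 0.05, and 2, Ifit3 and Oasl2, passed the adjusted test. Ifit3, which binds viral RNA complexes with Ifit1, fell from 15.3, 16.8 and 14.2 CPM in WT to 6.60, 8.99 and 7.61 CPM (log2 fold change -0.99, standard error 0.12, adjusted p = 0.0443 by limma-trend). Oasl2, of the oligoadenylate synthetase family, fell from 6.91, 8.03 and 6.84 to 4.07, 3.77 and 4.16 CPM (log2 fold change -0.84, adjusted p = 0.0443 by limma-trend). The direction of both held under all 15 alternative settings (log2 fold change -1.11 to -0.88 for Ifit3 and -0.88 to -0.72 for Oasl2), but the call of Ifit3 was lost in 12 and that of Oasl2 in 13 of them. For Ifit3 these included leaving out WT replicate 1 or 2, or replicate 1 or 3 labelled Rag1-/-, and for Oasl2 also replicate 2 so labelled. Over all 15, adjusted p by limma-trend ran from 0.0281 to 0.339 for Ifit3 and from 0.034 to 0.328 for Oasl2, the lowest of each without WT replicate 3, where both calls were kept. Ifit1 was at 3.97 to 4.90 and at 1.39 to 2.52 CPM (adjusted p = 0.238 by limma-trend), and Cxcl10 was at 0.661 to 1.46 and at 0.173 to 0.370 CPM (log2 fold change -1.43, adjusted p = 0.289 by limma-trend), with a log2 fold change of -0.60 at a pseudocount of 1. The median log2 fold change was -0.50 for these targets. Of 13 targets of interferon gamma, 7 were lower and 0 higher at an unadjusted p of at most 0.05 (median -0.29), among them B2m, the light chain of MHC class I, at 104 to 126 and at 87.7 to 94.0 CPM (log2 fold change -0.29, or -0.18 with a term for high Xist, adjusted p = 0.319 by limma-trend). Gbp2 was at 2.84 to 3.30 and at 2.13 to 2.5 CPM (adjusted p = 0.349 by limma-trend), and Irgm1 was at 7.30 to 8.49 and at 5.86 to 6.78 CPM (adjusted p = 0.387 by limma-trend). When high Xist (over 100 CPM) entered the fit as a term, so that the comparison rests on WT replicate 3, the counts were 7 of 16 and 1 of 13, and with quantile normalization they were 10 of 16 and 2 of 13, while the lower share of all tested genes went from 9.29% to 12.3% and 3.82%. The interferon gamma count was also 2 without WT replicate 2, 4 without replicate 1 and 3 without replicate 3 labelled Rag1-/-. These lists were assembled with earlier results of these data known, and Cxcl10 is a gene the study chose on these samples.

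**Figure D4:**
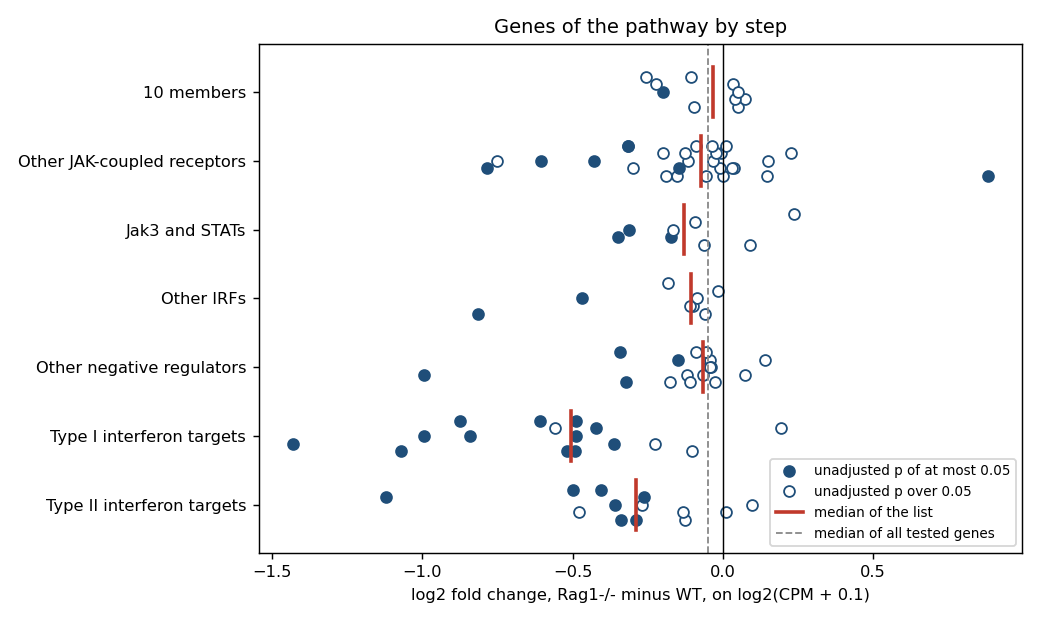
Log2 fold change (libraries labelled Rag1-/- minus WT, on log2(CPM + 0.1)) of each tested gene, by step of the pathway, with filled circles at an unadjusted p of at most 0.05, a red bar at the median of each list and a dashed line at the median of all tested genes. The median is -0.03 for the 10 members, -0.50 for type I targets and -0.29 for type II targets.

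Targets of Stat3 and immediate early genes, which share inducers with Socs3 and Irf1, gave 1 lower gene each at an unadjusted p of at most 0.05, of 8 and 10 tested, near the 9.29% lower of all tested genes. These were Cebpd, at 4.30 to 5.48 CPM in WT and 2.88 to 3.88 CPM in the brainstems labelled Rag1-/- (adjusted p = 0.34 by limma-trend), and Dusp1, at 19.8 to 21.2 and 15.3 to 17.9 CPM (adjusted p = 0.254 by limma-trend).

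The makeup of the tissue was read from marker lists, whose counts stand beside 9.29% lower and 2.27% higher of all tested genes at an unadjusted p of at most 0.05. Microglial genes summed to 263 to 294 CPM in WT and 263 to 283 CPM in the brainstems labelled Rag1-/-, with 0 of 8 at an unadjusted p of at most 0.05, and endothelial genes summed to 214 to 256 and 228 to 248 CPM, with 1 of 8. Oligodendrocyte genes were higher in the brainstems labelled Rag1-/- for 6 of 6 at an unadjusted p of at most 0.05, with sums of 18700 to 21800 and 24200 to 25600 CPM. Marrow granulocyte genes were lower for 5 of 6 tested, with sums of 4.89 to 17.8 and 2.60 to 5.50 CPM. T cell genes summed to 0.917 to 1.91 and 1.39 to 1.5 CPM, and the 3 tested had log2 fold changes of 0.101 to 0.116. Cd3e, with at most 5 reads a library, was at 0.0237, 0.0216 and 0.144 CPM in WT. It was at the lowest deposited value in replicates 1 and 3 labelled Rag1-/- and at 0.0318 CPM in replicate 2 so labelled. Cd2 was at the lowest value in those replicates 1 and 3 and also in WT replicate 2. B cell genes summed to 0.661 to 0.978 and 0.444 to 0.627 CPM. Choroid plexus genes summed to 474 to 1210 and 543 to 618 CPM (1 of 5 lower), red cell genes to 646 to 1880 and 895 to 1440 CPM (0 of 5), and meningeal fibroblast genes to 96.4 to 133 and 85.0 to 106 CPM (2 of 5 lower). Astrocyte genes summed to 2770 to 2910 and 3010 to 3060 CPM (1 of 6 higher), and neuron genes to 3250 to 3470 and 3190 to 3360 CPM (0 of 6). The part of these differences in the values of Ifngr1, Jak1, Irf1 and the interferon targets was not tested.

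Small differences such as those of the receptors and kinases depend on how the libraries are scaled. With the deposited scaling, 80.4% of the genes at an unadjusted p of at most 0.05 were lower in the brainstems labelled Rag1-/-, against 44.8% after median-of-ratios rescaling and 42.8% after quantile normalization. The log2 fold change of Ifngr1 was then -0.15 in both (unadjusted p = 0.0417 and 0.0442 by limma-trend), that of Jak1 was -0.051 and -0.072, and that of Irf1 was -0.21 and -0.17. The 5 members with values above 0 moved further from it, Ifnar1 to 0.095 and 0.097, Ifnar2 to 0.12 and 0.13, Ifngr2 to 0.081 and 0.077, Jak2 to 0.088 and 0.076 and Socs1 to 0.092 and 0.155, with unadjusted p of 0.0766 to 0.652 by limma-trend.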

How the data were processed

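Brainstem RNA of 3 WT and 3 Rag1-/- mice was compared. The authors demultiplexed the reads with bcl2fastq, aligned them to mm10 with STAR (version 2.5.3a) and used Partek Flow to count RefSeq genes. The deposited values are CPM, to each of which 0.0001 had been added. The sample descriptions give all 6 libraries the same sequencing run. Whole reads were not recovered, since 85.5% to 87.3% of low values were whole multiples of the smallest step within 0.1 read, and no count test was run. The depths of 31600000 to 46400000 reads come from that step, and the limit of 3 reads covers counting error only.

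From the deposited CPM, log2(CPM + 0.1) was computed, which understates the change of low transcripts. The 16762 genes whose mean reached 0.1 CPM entered limma-trend (limma 3.58.1, R 4.3.3), the method the authors name, with Benjamini-Hochberg adjustment, and 1296 were not tested. Single genes had an exact two-sided permutation test (smallest p 0.1). Coordinates are the deposited ones on mm10, with the end 1 base before the deposited stop. Transcript lengths are those of GENCODE M21 (GRCm38) within the deposited gene, and promoters are from RefSeq. Alternatives were other pseudocounts, filters, scalings and variance models, a replicate block, a term for Xist, and leaving out each library.

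Named were the 10 members, Rag1, Cxcl10, and from each pathway list those that passed the adjusted test and up to 3 with the smallest unadjusted p (at most 0.05). Some genes that the rule names are not reported here. Selected markers at or under 3 reads are named, and Il10rb, Jak3, Stat3 and Hoxb3 were added after their values were seen. The members and lists were chosen with earlier results of these data known. The mice are separate animals by the labels.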

Additional observations from a re-analysis of the deposited data

How the results depend on the processing

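The count of 0 of 10 members with an adjusted p under 0.05 by limma-trend stayed at 0 under all 15 alternatives, which include limma without the trend. No method other than limma was run across all genes. At an unadjusted p of at most 0.05 the count was 1, and it was 2 without the limma trend and 1 to 2 with a library left out, where the second gene was Irf1 (without replicate 1 labelled Rag1-/-) or Jak1 (without replicate 3 labelled Rag1-/-). The count of members whose genotypes did not overlap was 3, 3 after median-of-ratios rescaling and 2 after quantile normalization. With a library left out it was 3 to 5, the 5 coming without WT replicate 2 or without replicate 1 or 3 labelled Rag1-/-, but fewer libraries separate more easily: the share over all tested genes was then 25.1% to 31%, against 18.4%. Of 150 values of the 10 members under the alternatives, 148 kept their direction and their side of the threshold. The 2 others were values of Socs1, whose log2 fold change ranged from -0.0816 to 0.196 with a library left out.

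Over all genes, 8 had an adjusted p under 0.05, 6 lower and 2 higher. It came to 4 each for a pseudocount of 0.01, for no low-value filter and for a filter at a mean of 1 CPM, to 5 under quantile normalization, to 2 without the limma trend and to 134 with the Xist term. After median-of-ratios rescaling it was 6, 3 lower and 3 higher. With a library left out it ranged from 2 (without replicate 1 or 3 labelled Rag1-/-) to 24 (without WT replicate 3). The replicate numbers do not pair the samples (correlations of deviations 0.0926, -0.220 and -0.0183), and with the replicate block the count was 3 and no call among the members changed. The alternatives for the pathway lists and for the named pathway genes were chosen after seeing the data. Of the named pathway genes, Il10rb changed direction: from -0.0055 its log2 fold change went to 0.0393 after median-of-ratios rescaling, 0.0659 after quantile normalization and 0.231 with the Xist term, and it ranged from -0.124 to 0.0778 with a library left out. What causes these shifts was not tested. The intervals of Socs1 and Socs3, which have the fewest reads of the 10, were the widest, and the planned test on whole reads was not run because they were not recovered.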
